A study of Rattus norvegicus with 16 samples.

Results

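The pancreas and the adrenal gland of vehicle-treated rats were set against each other, a gland that secretes protein against a gland that secretes steroid. The comparison used 4 of the 16 samples of the series: the 2 vehicle pancreas libraries and the 2 vehicle adrenal libraries, joined gene by gene on the symbol. All rats were wildtype male Sprague-Dawley animals. The vehicle groups received vehicle without benzalkonium chloride (BKC, a quaternary ammonium disinfectant) by intratracheal instillation, 10 times at intervals of 3 days from the age of 7 weeks, and organs were taken on day 31, which was 24 h after the last instillation. Both adrenals of an animal were pooled, so cortex and medulla were measured together. The organ comparison was repeated in the 2 pancreas and the 2 adrenal libraries of rats given 100 µg BKC per instillation on the same schedule. Values are FPKM, fragments scaled to transcript length and library size, from poly(A)-selected stranded libraries. The files gave no read counts, so the depth behind a value is unknown.

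The exocrine pancreas is built mostly of acinar cells, which make digestive enzymes on the rough endoplasmic reticulum, pack the inactive precursors (zymogens) into granules and release them into ducts when a meal raises cholecystokinin and vagal input. The cells of the adrenal cortex hold no store of hormone. They take up cholesterol, move it into mitochondria through the protein Star, cut its side chain with Cyp11a1 and finish corticosterone and aldosterone with further enzymes of mitochondria and smooth endoplasmic reticulum, under ACTH and angiotensin II. The adrenal medulla holds chromaffin cells, which make catecholamines.

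The labelled organs were checked against their defining markers. Prss1, which encodes cationic trypsinogen, stood at 20734 and 12998 FPKM in vehicle pancreas, against 0.435 and 0 FPKM in vehicle adrenals. Cpa1, the gene of carboxypeptidase A1, stood at 10846 and 8093 FPKM in vehicle pancreas, against 0.136 and 0 FPKM in vehicle adrenals. Star stood at 0.0905 and 0 FPKM in vehicle pancreas, against 2353 and 4676 FPKM in vehicle adrenals. Cyp11a1 was listed at 0 FPKM in both vehicle pancreas libraries, against 5610 and 5950 FPKM in vehicle adrenals. For all 4 genes the organs lay far apart in every library.

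A few genes held most of the pancreas FPKM. The sum over all genes was 603063 and 486061 FPKM in vehicle pancreas, against 692837 and 689355 FPKM in vehicle adrenals. Starting from the highest gene, 7 genes reached 50% of the sum in each vehicle pancreas library, against 41 and 22 genes in the vehicle adrenals. For 80% of the sum, 19 genes were enough in each vehicle pancreas library, against 1361 and 1288 genes in the vehicle adrenals. In the adrenals 2 structural RNAs that are not made into protein took much of the sum. Rn7sl1, the RNA of the signal recognition particle, held 27.0% and 33.0% of the adrenal sum, and Rpph1, the RNA of ribonuclease P, held 12.5% and 8.69%. Among protein-coding genes alone, 7 genes in each vehicle pancreas library reached 50% of the sum, against 445 and 448 genes in the vehicle adrenals. By mean level, the 15 highest genes of vehicle pancreas included Rn7sl1, the amylase genes LOC120100609, LOC120100610, Amy2a3 and LOC103689940, the ribosomal RNA genes LOC120093067 and Rn28s, and the enzyme genes Cpb1, Pnlip, Ctrb1, Prss1, Prss3b, Pnliprp1 and Cela1. The 15 highest of vehicle adrenals were Rn7sl1, Rpph1, the steroidogenic genes Hsd3b1, Akr1b7, Cyp11a1, Hsd3b3, Star, Cyp11b1, Cyp11b2l1 and Cyp21a1, the translation genes Eef1a1 and Rpl41, the mitochondrial chaperone genes Hspe1 and Hspd1, and Gsta1. The 25 highest protein-coding genes held 89.0% and 89.6% of protein-coding FPKM in vehicle pancreas, against 14.9% and 16.4% in vehicle adrenals.

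**Figure D1:**
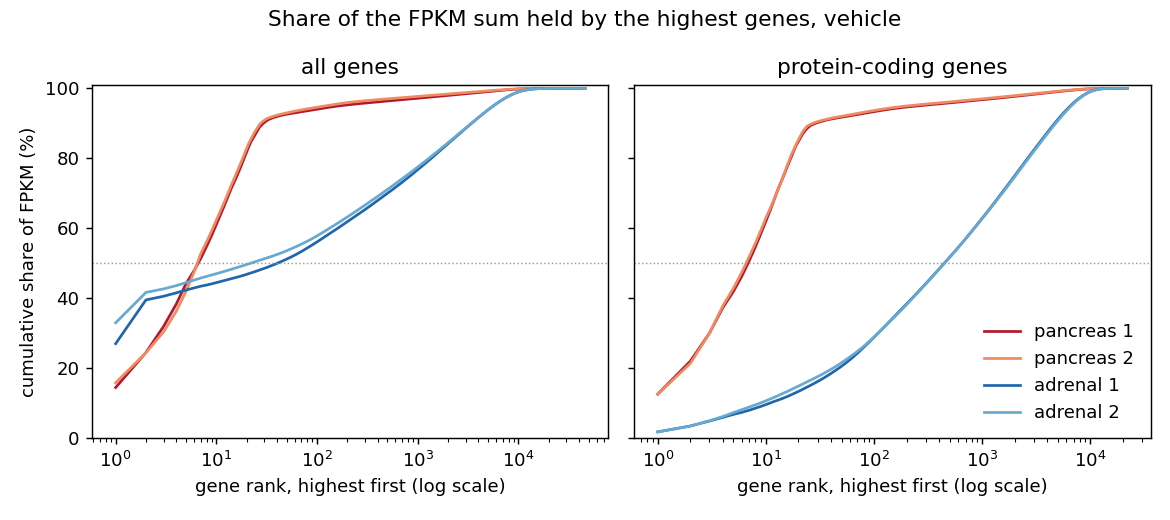
Cumulative share of the FPKM sum (y, percent) against gene rank from the highest gene down (x, log scale) for each vehicle library, over all genes (left) and over protein-coding genes (right); the dotted line marks 50%. The pancreas curves cross it at 7 genes in both panels, and the adrenal curves at 41 and 22 genes over all genes and at 445 and 448 among protein-coding genes.

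Digestive enzyme genes, their granule partners and an amylase gene cluster together held 71.8% and 61.6% of all FPKM in vehicle pancreas, and 90.2% and 90.3% of protein-coding FPKM. In vehicle adrenals the same genes held 0.00151% and 0.000645% of all FPKM. The difference between the pancreas libraries in the first pair went with ribosomal RNA, which held 4.45% of the sum in replicate 1 and 13.7% in replicate 2, and whose part in that difference was not tested. Steroidogenic and cholesterol delivery genes held 0.0126% and 0.00917% of FPKM in vehicle pancreas, against 5.70% and 6.57% in vehicle adrenals. These shares are drawn in the plot of gene classes.

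**Figure D2:**
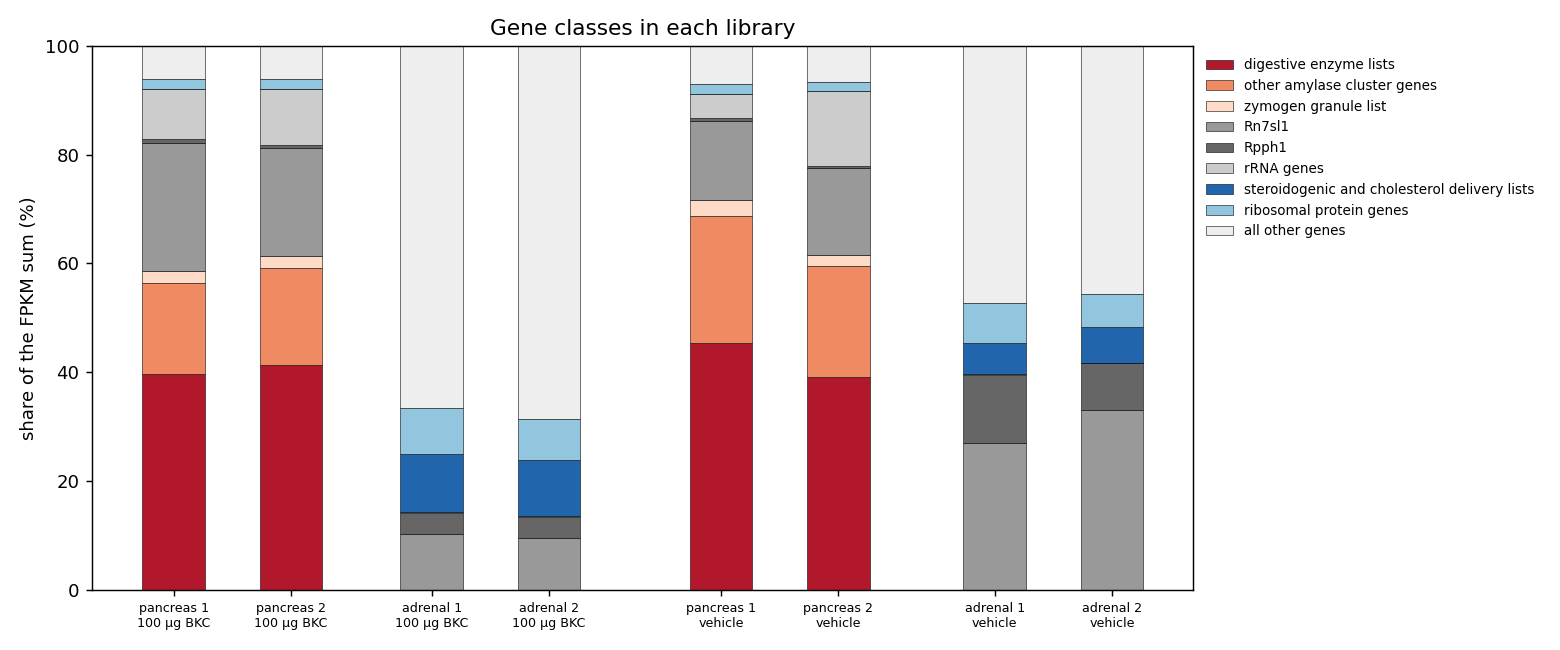
Share of the FPKM sum (y, percent) held by gene classes in each library (x), 100 µg BKC in the first 4 bars and vehicle in the others, pancreas before adrenal gland in each set. Digestive enzymes and the other amylase cluster genes fill most of each pancreas bar, while the 2 structural RNAs Rn7sl1 and Rpph1 and genes outside the listed classes fill most of each adrenal bar.

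FPKM are scaled to library size, so each level is relative to the rest of its library. As deposited, 358 of the 11694 genes tested were higher in vehicle pancreas (3.06%) and 10927 were lower (93.4%), by limma on log2(FPKM + 1) with a Benjamini-Hochberg adjusted p under 0.05. The median difference of all tested genes was -2.48 on that log2 scale, pancreas minus adrenal. After median-ratio scaling, which brings the typical gene to the same level in each library, the median was -0.04, and 3248 genes were higher (27.8%) and 3628 lower (31%). That scaling multiplied pancreas values by 9.66 to 15.9 relative to adrenal values, depending on the pair of libraries. Of the 10927 genes lower as deposited, 3628 were also lower after scaling and 2607 were higher. The counts after scaling were 1404 higher and 1981 lower without adrenal replicate 1, and 1572 higher and 2079 lower without adrenal replicate 2. Log2 differences and SE below are as deposited unless another scale is named, and for many single genes only those are given. The scaled difference can lie several log2 units away, as for Soat1 (-6.17 as deposited, -2.68 after scaling). Genes entered the test by their mean over the 4 libraries, so a gene at or near 0 in 1 organ entered through the other organ alone. The counts and medians of lists with such members are therefore descriptions, and the values of single genes carry those comparisons. These include the enzyme, granule, acinar factor, stimulus-secretion, islet, duct, steroidogenic, adrenal cortex regulator and chromaffin lists. With 2 libraries a group, an exact permutation test of 1 gene cannot go below p = 0.333 (two-sided). For 10751 of the 11694 genes the fit as deposited used a single shared trend of spread in place of the gene's own. Its smallest p-values rest on that trend, and fold changes with standard errors (SE) are given in their place. For those genes the SE and confidence intervals as deposited rest on the same trend, and do not measure the gene's own replicate spread. Star, at 2353 and 4676 FPKM in vehicle adrenals, had SE 0.38, and so did Cyp11a1, at 5610 and 5950 FPKM. In bulk tissue, fewer cells of a type and less RNA per cell cannot be told apart.

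**Figure D3:**
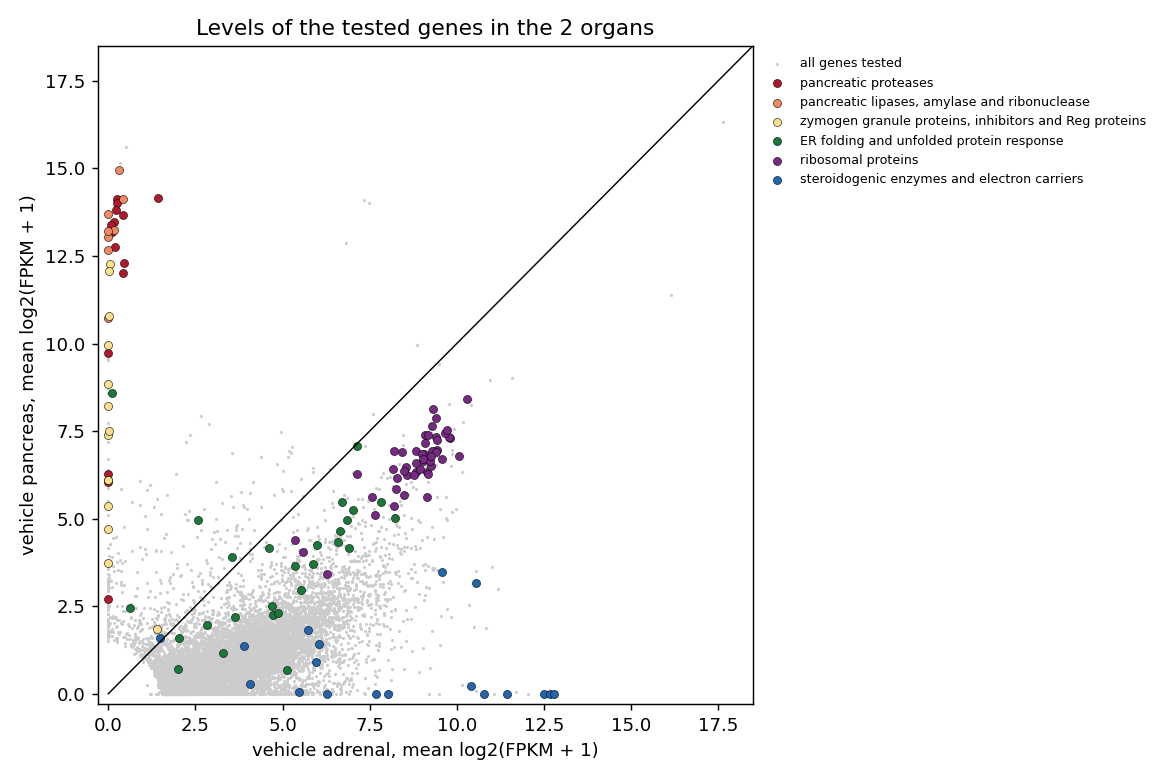
Mean log2(FPKM + 1) in vehicle pancreas (y) against vehicle adrenal gland (x) for the 11694 tested genes as deposited, with 6 gene lists in colour and the line of equal level. Enzyme genes lie along the left edge and many steroidogenic genes along the lower edge, with Akr1c14 near the line of equal level. Ribosomal protein and most endoplasmic reticulum genes lie below the line as deposited, and change to the higher side in median after median-ratio scaling.

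The 10 largest changes to the higher side in vehicle pancreas, taken over genes that passed with both libraries of 1 organ above both of the other and that have a name, included Amy2a3, Ctrb1, Prss1, Pnlip, Pnliprp1, Cela1, Cela2a, Prss3b and Rnase1. Of the listed genes, the 15 tested proteases and the 8 tested lipase, amylase and ribonuclease genes were higher in vehicle pancreas as deposited, against 3.06% of all tested genes, having entered the test through the pancreas libraries. Their median log2 differences were 12.72 and 13.15 as deposited, and 14.98 and 15.02 after median-ratio scaling, beside all-gene medians of -2.48 and -0.04. Ctrb1, the gene of chymotrypsinogen B, stood at 19266 and 16499 FPKM in vehicle pancreas, against 0.169 and 0.211 FPKM in vehicle adrenals (log2 difference 13.87, SE 0.38). Cpb1, the gene of carboxypeptidase B1, stood at 21327 and 15454 FPKM in vehicle pancreas, against 1.81 and 1.58 FPKM in vehicle adrenals (12.72, SE 0.39). Among proteases the spread within the pancreas was wide. Try10, a trypsin family gene, stood at 6.44 and 4.64 FPKM in vehicle pancreas and was listed at 0 in both vehicle adrenals (2.70, SE 0.25). The trypsinogen gene Prss3b stood at 18604 and 9244 FPKM in vehicle pancreas, against 0.812 and 0 FPKM in vehicle adrenals (13.25, SE 0.38). Near-identical trypsinogen genes can share reads, so the split among them is uncertain.

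Genes of fat digestion were within a few fold of each other in pancreas FPKM. Pnlip, the gene of pancreatic triglyceride lipase, stood at 22005 and 14473 FPKM in vehicle pancreas, against 0.681 and 0.0482 FPKM in vehicle adrenals (log2 difference 13.71, SE 0.38). Its relative Pnliprp1 stood at 15629 and 11534 FPKM in vehicle pancreas and was listed at 0 in both vehicle adrenals. Clps, the gene of the lipase cofactor colipase, stood at 8019 and 5349 FPKM in vehicle pancreas, and was likewise at 0 in both vehicle adrenals. No vehicle adrenal library reached 1 FPKM of any of these 3 genes. Cel, the gene of bile salt-activated lipase, stood at 11298 and 8480 FPKM in vehicle pancreas, against 0.260 and 0 FPKM in vehicle adrenals. Rnase1, the gene of the secreted ribonuclease, stood at 10471 and 8586 FPKM in vehicle pancreas and at 0 in vehicle adrenals (13.21, SE 0.38).

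Amylase, the starch-cutting enzyme, led the protein-coding genes of the pancreas through 4 neighbouring genes. In the GRCr8 gene order LOC120100609, LOC120100610, Amy2a3 and LOC103689940 lie side by side on chromosome 2, and the list gives Amy2 as an older name of Amy2a3 and of LOC103689940. Their RefSeq promoters, 250 bases before the start, were 96.3% to 99.6% identical between pairs. Together they held 29.7% and 25.8% of all FPKM in vehicle pancreas, against 0.000332% and 5.87e-05% in vehicle adrenals. Amy2a3 stood at 38185 and 26302 FPKM in vehicle pancreas, against 0.483 and 0.0474 FPKM in vehicle adrenals (log2 difference 14.63, SE 0.38). LOC120100609, the highest of the 4, stood at 60455 and 41707 FPKM in vehicle pancreas, against 0.750 and 0.175 FPKM in vehicle adrenals. With copies this alike, the split of reads among the 4 genes is uncertain, and their sum is the firmer value.

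Granule proteins followed the enzymes at lower levels. As deposited 11 of the 14 tested genes of zymogen granule proteins, inhibitors and Reg proteins were higher in vehicle pancreas and 0 lower, with a median log2 difference of 7.42, and 9.24 after median-ratio scaling. The share of all tested genes that were higher as deposited was 3.06%. Zg16, a lectin of the granule membrane, stood at 5900 and 4087 FPKM in vehicle pancreas, against 0.0703 and 0 FPKM in vehicle adrenals. Gp2, the main glycoprotein of that membrane, stood at 2228 and 1410 FPKM in vehicle pancreas, against 0 and 0.0234 FPKM in vehicle adrenals (log2 difference 10.78, SE 0.38). Spink1, the trypsin inhibitor that is packed with the zymogens, stood at 635 and 336 FPKM in vehicle pancreas and at 0 in both vehicle adrenals (log2 difference 8.85, SE 0.35). The Reg genes, which encode secreted lectins that rise in injured pancreas, were uneven between the pancreas libraries. Reg3b stood at 307 and 4.58 FPKM in vehicle pancreas and at 0 in vehicle adrenals, and its difference did not pass (5.37, SE 2.89, limma adjusted p = 0.209). Reg3a stood at 151 and 3.402 FPKM in vehicle pancreas and at 0 in vehicle adrenals, and did not pass either (4.69, SE 2.55, limma adjusted p = 0.212).

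**Figure D4:**
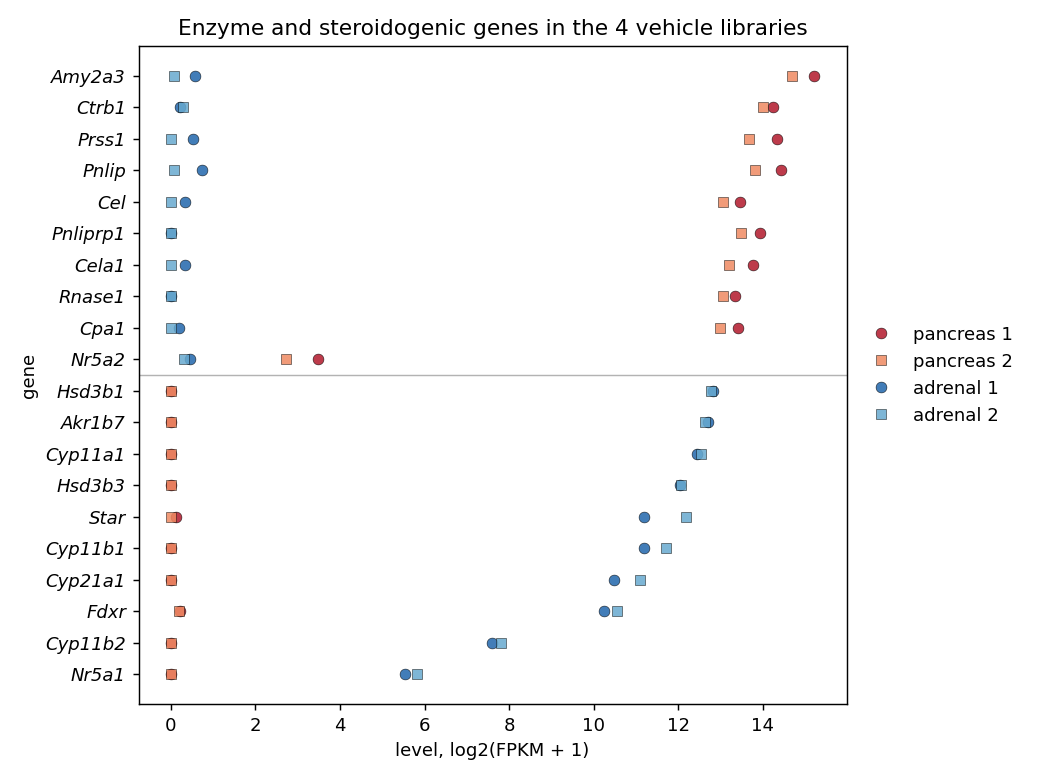
Level in log2(FPKM + 1) (x) of 10 pancreas genes (upper) and 10 adrenal genes (lower) in each of the 4 vehicle libraries; circles are replicate 1 and squares replicate 2. Digestive enzyme genes sit above 12 in both pancreas libraries and below 1 in both adrenals, Star and the steroidogenic enzymes sit above 7 in both adrenals and below 1 in both pancreas libraries, and the nuclear receptors Nr5a2 and Nr5a1 lie at lower levels on opposite sides.

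Acinar identity is kept by the PTF1 complex, in which Ptf1a and Rbpjl bind a paired site, and by the nuclear receptor Nr5a2. As deposited 6 of 7 tested acinar transcription factor genes were higher in vehicle pancreas and 0 lower, and after median-ratio scaling 7 of 7. Over all tested genes 3.06% were higher as deposited and 27.8% after scaling. Members at or near 0 in the adrenals, such as Ptf1a, entered the test through the pancreas libraries. Ptf1a stood at 11.6 and 6.11 FPKM in vehicle pancreas and at 0 in vehicle adrenals (log2 difference 3.24, SE 0.25). Rbpjl stood at 36.6 and 25.0 FPKM in vehicle pancreas, against 3.28 and 4.59 FPKM in vehicle adrenals (2.67, SE 0.33). Bhlha15, also called Mist1, which shapes the secretory architecture, stood at 15.1 and 13.7 FPKM in vehicle pancreas, against 0 and 0.0166 FPKM in vehicle adrenals (3.93, SE 0.26). The member that did not pass as deposited was Xbp1, the factor of the unfolded protein response that drives secretory capacity. It stood at 96.6 and 64.6 FPKM in vehicle pancreas, against 59.8 and 55.5 FPKM in vehicle adrenals (0.45, SE 0.38, limma adjusted p = 0.241), and was higher after scaling (4.01, SE 0.16, adjusted p = 1.28e-06).

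The nuclear receptors Nr5a1 and Nr5a2, which bind the same DNA letters, split between the organs. Nr5a2 stood at 10.2 and 5.57 FPKM in vehicle pancreas, against 0.362 and 0.236 FPKM in vehicle adrenals (log2 difference 2.73, SE 0.25 as deposited; 4.67, SE 0.16 after median-ratio scaling). Nr5a1, also called steroidogenic factor 1, was listed at 0 in both vehicle pancreas libraries, against 45.4 and 55.3 FPKM in vehicle adrenals (-5.68, SE 0.30 as deposited; -3.93, SE 0.18 after scaling). The directions for the receptors were opposite on both scales. As deposited the organs did not overlap for either receptor. The same held for 11406 of the 11694 tested genes, so non-overlap does not set the receptors apart.

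Upstream sequences of 4 of the most organ-divided genes are shown because they carry the letters of these factors. The RefSeq promoter table (GRCr8) was searched on both strands, in the 250 bases before each start, for AAGGTCA, the NR5A letters, and for CACCTG and TTTCCC, the E-box and Rbp letters of a PTF1 site. Of all 27457 promoters, 3.77% held AAGGTCA, 15.6% CACCTG, 22.1% TTTCCC, and 3.23% both PTF1 motifs. Of the 12 protease promoters matched (of 17 genes listed), 10 held CACCTG, 5 TTTCCC, 5 both of these, and 2 AAGGTCA. Of the 8 lipase, amylase and ribonuclease promoters matched (of 10 listed), 1 held CACCTG, 4 TTTCCC, 1 both of these, and 1 AAGGTCA. Of the 11 promoters of granule proteins, inhibitors and Reg proteins matched (of 16 listed), 4 held CACCTG, 4 TTTCCC, 1 both of these, and 0 AAGGTCA. Of the 14 steroidogenic promoters matched (of 20 listed), 1 held CACCTG, 2 TTTCCC, 0 both of these, and 2 AAGGTCA. The composite CACCTGNNNNTTTCCC, searched after the promoters had been seen, was present in 8 of 27457 promoters, 3 of them among the 12 proteases (Prss2, Ctrb1 and Cela1) and 0 in the other enzyme, granule and steroidogenic promoters matched. Capitals mark the searched letters, with TGACCTT being AAGGTCA on the other strand. Likewise GGGAAA is TTTCCC on the other strand. Ctrb1 (19:56566979-56567228, minus strand) and Cela1 (7:133665062-133665311, minus strand) hold the composite, Cela1 also holds AAGGTCA, and Akr1b7 (4:64043720-64043969, plus strand) and Cyp21a1 (20:4028141-4028390, plus strand) each hold AAGGTCA. In Cyp21a1 the AAGGTCA overlaps TTTCCC on the other strand. These are matches of letters and not sites shown to be bound.
Ctrb1: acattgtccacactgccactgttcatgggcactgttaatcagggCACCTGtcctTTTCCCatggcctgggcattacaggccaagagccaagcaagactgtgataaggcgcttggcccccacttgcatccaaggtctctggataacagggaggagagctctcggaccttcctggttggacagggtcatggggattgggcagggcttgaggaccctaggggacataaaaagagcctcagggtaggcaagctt
Cela1: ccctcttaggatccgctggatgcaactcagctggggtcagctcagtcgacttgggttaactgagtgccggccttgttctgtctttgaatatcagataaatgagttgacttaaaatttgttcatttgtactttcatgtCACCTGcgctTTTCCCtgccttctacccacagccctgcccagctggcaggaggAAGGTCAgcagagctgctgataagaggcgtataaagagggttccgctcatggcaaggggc
Akr1b7: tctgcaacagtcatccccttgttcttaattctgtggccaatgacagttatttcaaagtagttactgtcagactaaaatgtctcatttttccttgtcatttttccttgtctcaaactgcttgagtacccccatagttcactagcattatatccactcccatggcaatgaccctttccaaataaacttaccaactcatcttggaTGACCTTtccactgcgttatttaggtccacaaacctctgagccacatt
Cyp21a1: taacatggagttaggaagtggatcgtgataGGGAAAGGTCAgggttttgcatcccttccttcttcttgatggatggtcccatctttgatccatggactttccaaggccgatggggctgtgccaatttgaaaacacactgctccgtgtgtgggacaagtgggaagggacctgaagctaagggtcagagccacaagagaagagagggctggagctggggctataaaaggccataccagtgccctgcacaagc

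Receptors and release machinery showed a mixed picture as deposited. Of 14 tested stimulus-secretion genes, 4 were higher and 6 lower in vehicle pancreas as deposited, with a median log2 difference of 0.14, and 13 were higher and 0 lower after median-ratio scaling (median 2.25). The shares of all tested genes were 3.06% higher and 93.4% lower as deposited, and 27.8% higher and 31% lower after scaling. Cckar, the cholecystokinin receptor, stood at 27.9 and 23.3 FPKM in vehicle pancreas and at 0 in vehicle adrenals (4.73, SE 0.27). Sctr, the secretin receptor, stood at 13.0 and 8.47 FPKM in vehicle pancreas, against 0.372 and 0.0704 FPKM in vehicle adrenals (3.25, SE 0.26). Chrm3, the muscarinic receptor of acinar cells, stood at 2.19 and 1.38 FPKM in vehicle pancreas, against 1.15 and 1.44 FPKM in vehicle adrenals. The Chrm3 groups overlapped and the difference did not pass as deposited (0.27, SE 0.25, limma adjusted p = 0.282), while it passed after scaling (2.38, SE 0.16, adjusted p = 1.71e-05). Rab27b, a GTPase of granule release, stood at 4.39 and 1.90 FPKM in vehicle pancreas, against 0.510 and 0.427 FPKM in vehicle adrenals (1.43, SE 0.25).

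The general machinery of secretion changed direction with the scale. Of 31 tested genes of endoplasmic reticulum (ER) translocation and N-glycosylation, 0 were higher and 26 lower in vehicle pancreas as deposited (median log2 difference -2.15), but 23 were higher and 2 lower after median-ratio scaling (1.35), beside 93.4% of all tested genes lower as deposited, and 27.8% higher and 31% lower after scaling. Of 27 tested genes of ER folding and the unfolded protein response, 3 were higher and 20 lower as deposited (-1.77), and 25 higher and 1 lower after scaling (1.64). Of 25 tested genes of ER to Golgi transport, 1 was higher and 21 lower as deposited (-2.23), and 18 higher and 2 lower after scaling (1.16). Relative to the all-gene median, these 3 lists lay above it on both scales.

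Single ER genes spread widely around those medians. Pdia2, a protein disulfide isomerase known from acinar cells, stood at 459 and 320 FPKM in vehicle pancreas, against 0 and 0.144 FPKM in vehicle adrenals (log2 difference 8.49, SE 0.35 as deposited; 10.37, SE 0.16 after scaling). Tmed11, a cargo receptor of the early secretory pathway, stood at 55.2 and 59.2 FPKM in vehicle pancreas and at 0 in vehicle adrenals (5.86, SE 0.30). Ero1b, the oxidase that recharges disulfide isomerases, stood at 40.4 and 22.8 FPKM in vehicle pancreas, against 5.47 and 4.48 FPKM in vehicle adrenals (2.40, SE 0.34). These 3 genes were higher on both scales, unlike most of the lists they come from. Hspa5, the main ER chaperone BiP, stood at 50.8 and 37.0 FPKM in vehicle pancreas, against 226 and 224 FPKM in vehicle adrenals, which is lower as deposited (-2.35, SE 0.38) and higher after scaling (1.24, SE 0.17). P4hb, the classical disulfide isomerase, stood at 153 and 117 FPKM in vehicle pancreas, against 147 and 134 FPKM in vehicle adrenals, with overlapping groups as deposited (-0.07, 95% interval -0.81 to 0.68) and a higher level after scaling (3.53, SE 0.18). Ssr4, a translocon-associated subunit, stood at 108 and 65.6 FPKM in vehicle pancreas, against 79.9 and 84.1 FPKM in vehicle adrenals, also with overlapping groups as deposited (0.04, 95% interval -0.70 to 0.79; 3.62, SE 0.16 after scaling). For P4hb and Ssr4 the intervals as deposited lay within 2-fold. Members lower on both scales included Ddit3, the stress factor Chop, which stood at 0.891 and 0.359 FPKM in vehicle pancreas, against 34.4 and 33.9 FPKM in vehicle adrenals (-4.46, SE 0.30; -1.83, SE 0.19 after scaling).

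Genes of translation and of amino acid supply are given next, beside 93.4% of all tested genes lower as deposited, and 27.8% higher and 31% lower after scaling. Ribosomal protein genes were lower in vehicle pancreas as deposited in 50 of 50 tested (median log2 difference -2.28), and higher in 48 and lower in 0 after median-ratio scaling (1.33). tRNA synthetase genes were lower in 18 of 18 as deposited (-1.98), and higher in 14 and lower in 2 after scaling (1.34). Of 16 tested amino acid transporter genes, 6 were higher and 9 lower as deposited (-0.73), and 13 higher and 2 lower after scaling (2.05). Slc38a5, a glutamine carrier, stood at 45.9 and 24.0 FPKM in vehicle pancreas and at 0 in vehicle adrenals (5.10, SE 0.28). Slc38a3, which also carries glutamine, stood at 10.9 and 7.19 FPKM in vehicle pancreas, against 0.0182 and 0.0150 FPKM in vehicle adrenals (3.28, SE 0.25). Slc7a5, a carrier of large neutral amino acids, stood at 14.2 and 18.3 FPKM in vehicle pancreas, against 1.08 and 2.23 FPKM in vehicle adrenals (2.72, SE 0.29). Slc38a1, another glutamine carrier, ran the other way on both scales, with 0.239 and 0.0785 FPKM in vehicle pancreas, against 9.30 and 10.4 FPKM in vehicle adrenals (-3.23, SE 0.25; -1.34, SE 0.18 after scaling). Slc38a5 and Slc38a1, members of the same carrier family, lay on opposite sides.

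**Figure D5:**
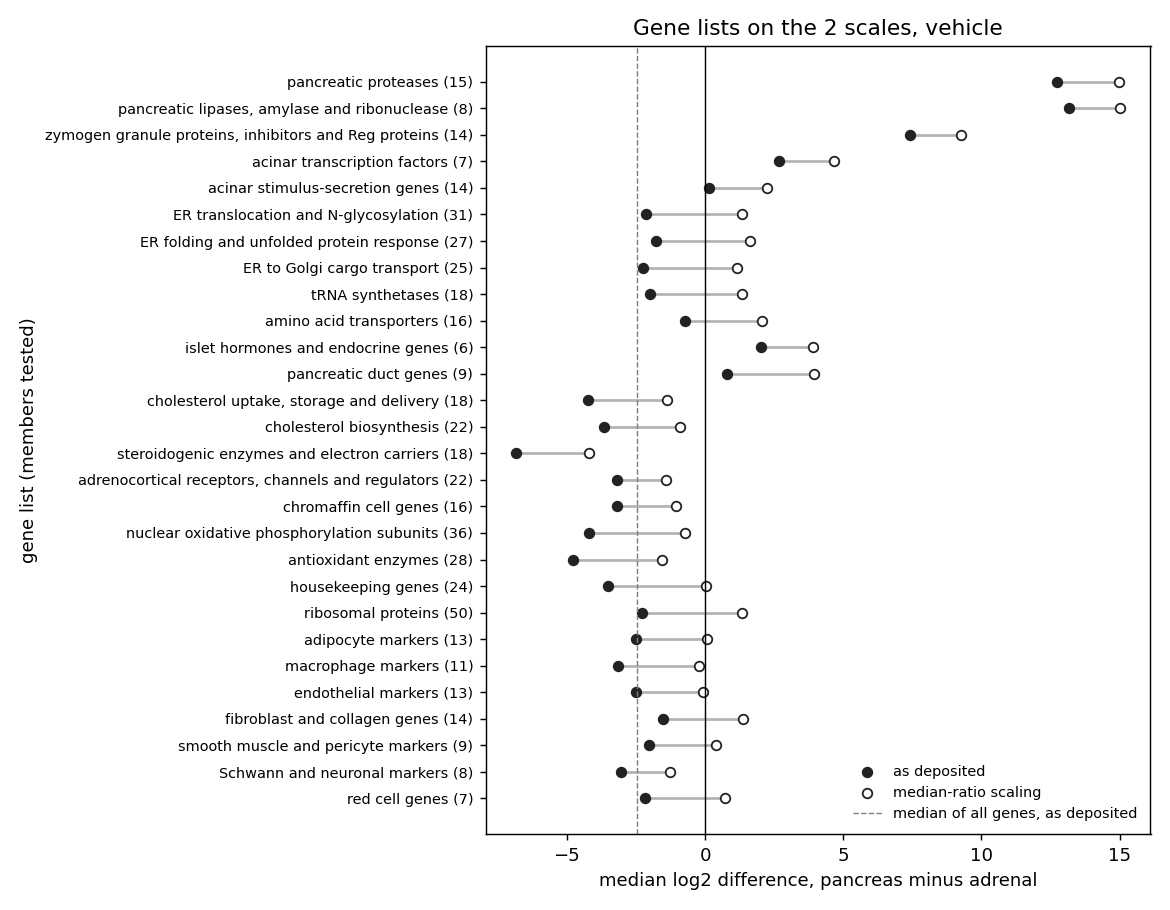
Median log2 difference, pancreas minus adrenal gland (x), of each gene list with at least 5 tested members (y, number tested in brackets), as deposited (filled) and after median-ratio scaling (open); the dashed line is the all-gene median as deposited, -2.48. Enzyme lists stay above 0 and steroidogenic, chromaffin and mitochondrial lists below 0 on both scales, while ER, tRNA synthetase and ribosomal protein lists lie below 0 as deposited and above 0 after scaling.

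Steroidogenic genes were the mirror of the enzymes. The 10 largest changes to the lower side in vehicle pancreas, taken over genes that passed with both libraries of 1 organ below both of the other, were Hsd3b1, Akr1b7, Cyp11a1, Hsd3b3, Star, Cyp11b1, Cyp11b2l1, Cyp21a1, Cyp1b1 and Fdxr. Of 18 tested genes of steroidogenic enzymes and electron carriers, 17 were lower in vehicle pancreas as deposited, against 93.4% of all tested genes, so the count alone does not set them apart on that scale. After median-ratio scaling 16 were lower, against 31% of all tested genes, with a median log2 difference of -4.20 (-6.84 as deposited). Hsd3b1, the gene of 3-beta-hydroxysteroid dehydrogenase, was listed at 0 in both vehicle pancreas libraries, against 7245 and 7006 FPKM in vehicle adrenals (-12.80, SE 0.38). Cyp21a1, the gene of the 21-hydroxylase, was at 0 in both vehicle pancreas libraries, against 1425 and 2202 FPKM in vehicle adrenals (-10.79, SE 0.38). Akr1b7, an aldo-keto reductase abundant in rodent adrenal cortex, was at 0 in both vehicle pancreas libraries, against 6681 and 6405 FPKM in vehicle adrenals (-12.68, SE 0.38).

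The last steps of corticosterone and aldosterone synthesis were present side by side in the adrenals. Cyp11b1, the gene of the 11-beta-hydroxylase, was listed at 0 in both vehicle pancreas libraries, against 2331 and 3337 FPKM in vehicle adrenals. Cyp11b2, the gene of aldosterone synthase, was at 0 in both vehicle pancreas libraries, against 192 and 221 FPKM in vehicle adrenals (log2 difference -7.70, SE 0.34). Cyp11b2l1 stood at 0 in both vehicle pancreas libraries, against 1891 and 2488 FPKM in vehicle adrenals. These Cyp11b genes are close relatives, and reads could be split among them.

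The RNA levels of electron carriers of the P450 enzymes differed in how far apart the organs lay. Fdxr and Fdx1 feed the mitochondrial P450 enzymes. Fdxr, the gene of adrenodoxin reductase, stood at 0.161 and 0.148 FPKM in vehicle pancreas, against 1211 and 1504 FPKM in vehicle adrenals (log2 difference -10.19, SE 0.38). Fdx1, the gene of adrenodoxin, stood at 11.8 and 5.30 FPKM in vehicle pancreas, against 1261 and 1809 FPKM in vehicle adrenals (-7.39, SE 0.38). Por, the reductase that serves the P450 enzymes of the smooth ER, stood at 1.947 and 1.403 FPKM in vehicle pancreas, against 51.7 and 83.1 FPKM in vehicle adrenals (-4.64, SE 0.33; -1.53, SE 0.24 after scaling). Of the 3 carriers, the difference was widest for Fdxr and narrowest for Por. The member outside the pattern was Akr1c14, a 3-alpha-hydroxysteroid dehydrogenase gene, with 3.01 and 1.28 FPKM in vehicle pancreas, against 2.18 and 1.44 FPKM in vehicle adrenals. Its groups overlapped and the difference did not pass as deposited (0.12, SE 0.25, limma adjusted p = 0.639), while it was higher after scaling (2.39, SE 0.21, adjusted p = 5.93e-05).

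Cholesterol genes are given from uptake to delivery and then synthesis. All 18 tested genes of cholesterol uptake, storage and delivery were lower in vehicle pancreas as deposited (median log2 difference -4.25), a share near the 93.4% of all tested genes, and 12 were lower and 1 higher after median-ratio scaling (-1.37), against 31% of all tested genes lower. Scarb1, the receptor that takes up cholesterol from high-density lipoprotein, stood at 0.754 and 0.516 FPKM in vehicle pancreas, against 267 and 472 FPKM in vehicle adrenals (-7.77, SE 0.36). Soat1, which stores cholesterol as esters, stood at 9.71 and 5.26 FPKM in vehicle pancreas, against 546 and 630 FPKM in vehicle adrenals (-6.17, SE 0.38). Apoe, the apolipoprotein E gene, stood at 12.0 and 8.84 FPKM in vehicle pancreas, against 1487 and 1517 FPKM in vehicle adrenals (-7.05, SE 0.38). These 3 genes of uptake, storage and carriage were lower on both scales. Tspo, an outer mitochondrial membrane protein that binds cholesterol, stood at 1.08 and 0.312 FPKM in vehicle pancreas, against 576 and 629 FPKM in vehicle adrenals (-8.51, SE 0.37). Plin2, a coat protein of lipid droplets, stood at 1.29 and 0.681 FPKM in vehicle pancreas, against 233 and 287 FPKM in vehicle adrenals (-7.05, SE 0.36). Of 22 tested genes of cholesterol biosynthesis, 22 were lower as deposited (-3.64), and 15 were lower and 1 higher after scaling (-0.92), beside the same shares of all genes. The gene of the final reductase, Dhcr7, stood at 0.160 and 0.251 FPKM in vehicle pancreas, against 108 and 130 FPKM in vehicle adrenals (-6.63, SE 0.33; -4.31, SE 0.22 after scaling).

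Receptors and regulators of the adrenal cortex were lower in vehicle pancreas in 21 of 22 tested as deposited (median log2 difference -3.20), near the 93.4% of all tested genes. After median-ratio scaling 16 were lower and 0 higher (-1.43), against 31% of all tested genes lower. Members at 0 in both pancreas libraries entered the test through the adrenals and could only be lower, so these counts are descriptions. Mc2r, the ACTH receptor, was listed at 0 in both vehicle pancreas libraries, against 152 and 94.8 FPKM in vehicle adrenals (-6.92, SE 0.32). Mrap, the accessory protein that carries Mc2r to the cell surface, was at 0 in both vehicle pancreas libraries, against 109 and 245 FPKM in vehicle adrenals (-7.36, SE 0.33). Agtr1b, an angiotensin II receptor gene, stood at 0.127 and 0.119 FPKM in vehicle pancreas, against 26.7 and 19.1 FPKM in vehicle adrenals (-4.40, SE 0.27). The receptor genes for ACTH and for angiotensin II named here were lower in vehicle pancreas on both scales. Prkar2b, a regulatory subunit of protein kinase A downstream of ACTH, stood at 0.356 and 0.229 FPKM in vehicle pancreas, against 118 and 102 FPKM in vehicle adrenals (-6.42, SE 0.33). Another regulatory subunit of that kinase, Prkar1a, stood at 3.54 and 1.80 FPKM in vehicle pancreas, against 263 and 279 FPKM in vehicle adrenals (-6.25, SE 0.37). Nr0b1, the nuclear receptor Dax1 that restrains Nr5a1, was listed at 0 in both vehicle pancreas libraries, against 5.87 and 9.55 FPKM in vehicle adrenals (-3.09, SE 0.25). The member that did not pass was Nr4a2, an immediate-early nuclear receptor, with 0.168 and 0.184 FPKM in vehicle pancreas, against 1.85 and 9.79 FPKM in vehicle adrenals (limma adjusted p = 0.0680).

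Genes of the medulla were measured beside those of the cortex. Of 27 listed chromaffin cell genes 16 passed the filter on low values. Genes near 0 in the pancreas passed through the adrenal libraries, so no count over the 16 is read here. The 27 genes summed to 11.6 and 3.64 FPKM in vehicle pancreas, against 602 and 550.4 FPKM in vehicle adrenals. Th, the tyrosine hydroxylase that starts catecholamine synthesis, was listed at 0 in both vehicle pancreas libraries, against 35.6 and 35.0 FPKM in vehicle adrenals (-5.18, SE 0.28). Dbh, which turns dopamine into noradrenaline, was at 0 in both vehicle pancreas libraries, against 47.9 and 52.1 FPKM in vehicle adrenals (-5.67, SE 0.30). Pnmt, which makes adrenaline, was at 0 in both vehicle pancreas libraries, against 33.0 and 71.0 FPKM in vehicle adrenals (-5.63, SE 0.30). Chga, the granule protein chromogranin A, stood at 0.648 and 0.151 FPKM in vehicle pancreas, against 169 and 160 FPKM in vehicle adrenals (-6.91, SE 0.34).

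Mitochondrial and antioxidant genes were read against the background of all genes, of which 93.4% were lower as deposited and 31% after median-ratio scaling. All 36 tested nuclear genes of oxidative phosphorylation subunits were lower in vehicle pancreas as deposited (median log2 difference -4.18), and 23 were lower and 1 higher after scaling (-0.74). Of 28 tested antioxidant enzyme genes, 26 were lower and 1 higher as deposited (-4.79), and 19 lower and 4 higher after scaling (-1.54). Prdx3, the mitochondrial peroxiredoxin, stood at 5.92 and 3.86 FPKM in vehicle pancreas, against 1405 and 1205 FPKM in vehicle adrenals (-7.81, SE 0.38; -4.38, SE 0.17 after scaling). Sod2, the mitochondrial superoxide dismutase, stood at 5.38 and 3.41 FPKM in vehicle pancreas, against 840 and 858 FPKM in vehicle adrenals (-7.32, SE 0.38; -3.91, SE 0.16 after scaling). Both of these mitochondrial enzymes kept differences of over 2-fold after scaling. Gsta1, a glutathione transferase gene, stood at 4.12 and 1.63 FPKM in vehicle pancreas, against 1787 and 1868 FPKM in vehicle adrenals (-8.96, SE 0.38). The exception as deposited was Prdx4, the peroxiredoxin of the ER, with 216 and 146 FPKM in vehicle pancreas, against 38.3 and 23.5 FPKM in vehicle adrenals (2.53, SE 0.38; 6.04, SE 0.22 after scaling). The peroxiredoxins Prdx3 and Prdx4 lay on opposite sides on both scales. Cat, the peroxisomal catalase, stood at 11.04 and 7.349 FPKM in vehicle pancreas, against 37.7 and 50.8 FPKM in vehicle adrenals, lower as deposited (-2.16, SE 0.35) and higher after scaling (1.28, SE 0.19).

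Counts of common reference genes lay near the shares of all tested genes, and single members lay on either side after scaling. All 24 tested housekeeping genes were lower in vehicle pancreas as deposited (median log2 difference -3.51), and 7 were higher and 9 lower after median-ratio scaling (0.03), beside 93.4% of all tested genes lower as deposited, and 27.8% higher and 31% lower after scaling. Gapdh stood at 8.52 and 4.52 FPKM in vehicle pancreas, against 448 and 521 FPKM in vehicle adrenals, lower on both scales (-6.06, SE 0.38; -2.60, SE 0.18 after scaling). Eef1a1, a translation elongation factor gene, stood at 577 and 459 FPKM in vehicle pancreas, against 3347 and 2768 FPKM in vehicle adrenals, lower as deposited (-2.56, SE 0.39) and higher after scaling (1.06, SE 0.23). Genes with a 95% interval within 2-fold numbered 293 of 11694 as deposited (2.51%) and 5066 after scaling (43.3%), and 9923 (84.9%) against 1769 (15.1%) were over 2-fold apart.

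Lists of markers of islet and duct cells are given here, and which cells carry these RNAs in bulk tissue was not tested. Of 23 listed islet genes 6 passed the filter, and 2 of these were higher and 0 lower in vehicle pancreas as deposited. Ins1, an insulin gene, stood at 282 and 36.9 FPKM in vehicle pancreas and at 0 in both vehicle adrenals (log2 difference 6.69, SE 1.45, limma adjusted p = 0.0450). Ins2 stood at 181 and 23.5 FPKM in vehicle pancreas, against 18.4 and 15.2 FPKM in vehicle adrenals, and did not pass as deposited (1.91, SE 1.24, limma adjusted p = 0.231). The insulin genes differed more between the pancreas libraries than the acinar enzymes did, and both were higher in replicate 1. Of 9 tested duct genes, 5 were higher and 3 lower in vehicle pancreas as deposited, and 6 higher and 1 lower after median-ratio scaling. Beside the islet and duct counts, 3.06% of all tested genes were higher and 93.4% lower as deposited. After scaling 27.8% were higher and 31% lower. Tff2, the gene of a trefoil peptide, stood at 493 and 296 FPKM in vehicle pancreas and at 0 in vehicle adrenals (8.58, SE 0.35). Krt18, a keratin of simple epithelia, stood at 17.3 and 8.41 FPKM in vehicle pancreas and at 0 in vehicle adrenals (3.71, SE 0.26). Spp1, the osteopontin gene, went the other way with 12.3 and 8.97 FPKM in vehicle pancreas, against 1029 and 472 FPKM in vehicle adrenals (-5.92, SE 0.38).

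Markers of cells found in both organs were lower in vehicle pancreas as deposited in 13 of 13 adipocyte, 11 of 11 macrophage, 13 of 13 endothelial and 13 of 14 fibroblast and collagen genes tested, shares near the 93.4% of all tested genes. After median-ratio scaling the counts were 4 higher and 3 lower for adipocyte, 2 and 3 for macrophage, 1 and 4 for endothelial, and 10 and 1 for fibroblast genes, beside 27.8% higher and 31% lower over all genes. The median log2 difference of the fibroblast list was -1.53 as deposited and 1.38 after scaling. Pecam1, an endothelial adhesion gene, stood at 2.55 and 1.58 FPKM in vehicle pancreas, against 25.0 and 24.3 FPKM in vehicle adrenals (log2 difference -3.08, SE 0.31 as deposited; 0.01, 95% interval -0.34 to 0.36 after scaling). Col3a1, a fibrillar collagen gene, stood at 12.9 and 6.84 FPKM in vehicle pancreas, against 31.0 and 42.3 FPKM in vehicle adrenals, lower as deposited (-1.83, SE 0.35) and higher after scaling (1.59, SE 0.20). Cidea, a gene of brown fat, stood at 0.526 and 0.0924 FPKM in vehicle pancreas, against 73.5 and 88.0 FPKM in vehicle adrenals, lower on both scales (-5.98, SE 0.32; -3.68, SE 0.28 after scaling). Cidea does not stand for the adipocyte list, whose median log2 difference was 0.07 after scaling. Vehicle hearts held 87.3 and 68.9 FPKM of Cidea. Hbb, a blood haemoglobin gene, stood at 108 and 6.55 FPKM in vehicle pancreas, against 386 and 245 FPKM in vehicle adrenals, and did not pass on either scale (limma adjusted p = 0.226 as deposited and 0.962 after scaling). Markers of lymphoid cells (3 tested of 19 listed), liver (4 of 12), intestine and spleen (1 of 12) and kidney (0 of 12) were mostly under the filter.

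Each organ's leading genes were also read in the other organ. Enzyme genes with the amylase cluster summed to 414893 and 289159 FPKM in vehicle pancreas, against 8.62 and 2.76 FPKM in vehicle adrenals. Of the 26 of these genes that were tested, 17 were above 0 in vehicle adrenal replicate 1 and 9 in replicate 2. Vehicle hearts, for scale, held 1.08 and 0.975 FPKM of these genes. The 20 listed genes of steroidogenic enzymes and electron carriers summed to 35.3 and 21.0 FPKM in vehicle pancreas, against 27343 and 29785 FPKM in vehicle adrenals. Of these 20 genes, 10 were above 0 in vehicle pancreas replicate 1 and 9 in replicate 2, among them Fdx1, Por and Akr1c14. A narrower set of 11 genes was chosen after the values were seen, namely Star, Cyp11a1, Hsd3b1, Hsd3b2, Hsd3b3, Cyp21a1, Cyp11b1, Cyp11b2, Cyp11b2l1, Cyp11b3 and Akr1b7. Of these, 1 was above 0 in vehicle pancreas replicate 1 (Star, 0.0905 FPKM) and 0 in replicate 2.

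The most abundant structural RNAs also differed between the vehicle organs, in libraries meant for poly(A) RNA. Rn7sl1 stood at 87398 and 77072 FPKM in vehicle pancreas, against 187295 and 227486 FPKM in vehicle adrenals, lower as deposited (log2 difference -1.33, SE 0.36) and higher after median-ratio scaling (2.30, SE 0.36). In the 100 µg BKC libraries Rn7sl1 was higher in pancreas on both scales (1.62 as deposited, 5.01 after scaling). Rpph1 stood at 2950 and 2424 FPKM in vehicle pancreas, against 86739 and 59896 FPKM in vehicle adrenals, lower on both scales (-4.75, SE 0.37; -1.12, SE 0.31 after scaling). That direction did not hold in the 100 µg BKC libraries on both scales. There Rpph1 was lower in pancreas as deposited (-2.24) and higher after scaling (1.15, limma adjusted p = 0.00779). Rn28s, the large ribosomal RNA, stood at 10790 and 25656 FPKM in vehicle pancreas, against 159 and 196 FPKM in vehicle adrenals (6.55, SE 0.39). Poly(A) selection is meant to leave such RNA behind, and its part in these levels was not tested. Of the 358 genes higher as deposited, 271 were protein-coding, 31 encode small nuclear RNAs and 27 small nucleolar RNAs. Of the 10927 genes lower as deposited, 10237 were protein-coding, 11 encode small nuclear RNAs and 211 small nucleolar RNAs.

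The organ comparison was repeated in the BKC100 libraries, which share no library with the vehicle groups. As deposited, 299 of 11278 genes were higher in BKC100 pancreas (2.65%) and 10478 lower (92.9%), and after median-ratio scaling 2766 were higher (24.5%) and 3100 lower (27.5%). Of the 324 genes higher in vehicle pancreas as deposited and tested in both, 241 were higher in BKC100 pancreas (74.4%) and 14 lower. Of the 3382 genes lower in vehicle pancreas after scaling and tested in both, 2511 were lower in BKC100 pancreas (74.2%) and 8 higher. Prss1 stood at 18873 and 19413 FPKM in BKC100 pancreas and at 0 in both BKC100 adrenals. Star stood at 0 and 0.0834 FPKM in BKC100 pancreas, against 8811 and 6453 FPKM in BKC100 adrenals. The organ difference as deposited itself differed between BKC100 and vehicle libraries in 240 of 11694 genes (2.05%), by a limma interaction with adjusted p under 0.05. As in vehicle, 50% of the summed FPKM was held by 7 genes in each BKC100 pancreas library, against 234 and 319 genes in the BKC100 adrenals. Rn7sl1 held 10.29% and 9.505% of the BKC100 adrenal sum, less than in vehicle adrenals, and its part in those counts was not tested. The vehicle libraries of the 2 organs were named in different styles and the BKC100 libraries in 1 style. In vehicle, organ and naming style cannot be told apart.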

How the data were processed

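RNA from pieces of pancreas (about 50 mg) and from pooled adrenals was sequenced with a stranded mRNA kit, per the labels. The authors deposited 1 table per organ with 1 value per gene and library, already scaled before deposit to what was read here as FPKM (fragments per unit of transcript length and of library size). The tables do not state the unit, which was inferred from values that are not whole and library sums that differ. Roles are not given for the tools in the submitters' processing notes, which are edgeR 3.40.2, HISAT2 2.1.0 and StringTie 2.1.3b, and the genome build is not given in the sources used here. For replicate 2 of BKC100 the heart and adrenal columns hold equal values in 45777 of 45777 genes, and they were used as adrenal gland only. All 45777 symbols were found in the GRCr8 gene list, and 85 rows share a symbol.

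The 11694 genes whose vehicle libraries averaged 1 FPKM or more were tested with limma 3.58.1 in R 4.3.3 on log2(FPKM + 1), with a mean-variance trend and robust shrinkage, at a Benjamini-Hochberg adjusted p under 0.05. The log2 differences understate those of genes near 0. Levels over 2-fold apart were tested with limma's treat, and a difference was within 2-fold when its 95% interval was. Median-ratio scaling used the 10972 genes above 0 in all 4 libraries. Read counts could not be recovered from the values, so no counting interval or floor was given. Figures were drawn with matplotlib 3.10.9. Nothing in the labels ties a pancreas to an adrenal of the same animal, and the p-values speak to these samples only. For 10751 of the 11694 genes the p-values, SE and intervals as deposited use a spread shared across genes, not the gene's own. The counts within 2-fold as deposited rest on those intervals. Members, lists and tests were chosen with earlier results of these data known. The text names the marker genes, the 10 largest called differences each way, the 15 highest genes of each organ, and for each list members with large, opposite or small differences. A gene that these rules select is not reported here.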

Additional observations from a re-analysis of the deposited data

Results flagged for a closer look

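The difference between the organs was itself different between BKC100 and vehicle libraries for 3 of the 97 named genes tested (3.09%), by a limma interaction over the 8 libraries that called 240 of 11694 genes (2.05%). This interaction was fitted as deposited only. For Scarb1 the organ difference was -9.66 in BKC100 and -7.77 in vehicle libraries, and vehicle minus BKC100 was 1.89 (log2, limma adjusted p = 0.0224). Adrenal Scarb1 stood at 1492 and 1092 FPKM in BKC100 libraries, against 267 and 472 FPKM in vehicle libraries. For Rn7sl1 the organ difference was 1.62 in BKC100 and -1.33 in vehicle libraries, and vehicle minus BKC100 was -2.95 (limma adjusted p = 0.00010). For Rpph1 the organ difference was -2.24 in BKC100 and -4.75 in vehicle libraries, and vehicle minus BKC100 was -2.52 (limma adjusted p = 0.00103). In BKC100 libraries each organ's pair of libraries lay apart from the other organ's pair for all 3 genes. In vehicle libraries 11406 of the 11694 tested genes lay apart in this way, so it does not set the 3 genes apart. The BKC100 and vehicle adrenal libraries were named in different styles, so that in the adrenal gland dose and naming style cannot be told apart.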

How the results depend on the processing

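The scale decided the counts, with 358 genes higher, 10927 lower, 9923 over 2-fold apart and 293 within 2-fold as deposited. Median-ratio scaling gave 3248, 3628, 1769 and 5066, quantile normalization 2811, 4337, 2274 and 3809. With protein-coding genes other than the acinar lists at equal sums, 595 were higher and 1046 within 2-fold; with the amylase cluster also left out of those sums, an alternative chosen after seeing the data, the counts were 2546, 4535, 1857 and 4897. A mean of at least 5 FPKM gave 172, 6285, 6220 and 31. No filter on low values (45777 genes) gave 2, 19, 0 and 30187, with 12482 genes at an unadjusted p under 0.05 in limma. A pseudocount of 0.1 gave 41 within 2-fold. Leaving out 1 library gave 318 to 331 higher, 10626 to 10871 lower, 8715 to 9774 over 2-fold apart and 121 to 270 within 2-fold; after median-ratio scaling it gave 1404 to 2964 higher and 1981 to 3086 lower. The replicate block gave 354 higher and 10950 lower, and libraries with the same number did not deviate together (r = -0.02 across genes, which are not independent replicates); it gave 2 of the named genes a call they lacked. In vehicle adrenals, 50% of the sum was reached by 445 and 448 genes among protein-coding genes, and by 469 in each library without small non-coding RNAs. In BKC100 adrenals 50% was reached by 234 and 319 genes over all genes, and by 379 and 498 among protein-coding genes. The cause was not tested beyond what each alternative changes.

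Among named genes, log2 differences changed sign under median-ratio scaling for Hspa5 (1.24), P4hb (3.53), Cat (1.28), Eef1a1 (1.06), Rpl41 (1.63), Pecam1 (0.011), Col3a1 (1.59), Hbb (0.11) and Rn7sl1 (2.30). With the acinar lists and amylase cluster left out of the sums they changed for Hspa5 (0.94), P4hb (3.23), Cat (1.00), Eef1a1 (0.76), Rpl41 (1.33), Col3a1 (1.31) and Rn7sl1 (2.00), with the lists alone for P4hb (1.24), and under quantile normalization for Hspa5 (0.43), P4hb (2.23), Cat (1.16) and Col3a1 (1.51). In BKC100 libraries they changed for P4hb (0.39), Akr1c14 (-0.16) and Rn7sl1 (1.62). Leaving out 1 library in turn gave -0.26 to 0.13 for P4hb, -0.32 to 0.40 for Ssr4 and -0.29 to 0.53 for Akr1c14, none of which had passed.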

Other observations

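The vehicle pancreas libraries were also set against each other. Replicate 1 was higher than replicate 2 in 89.9% of tested genes (median log2 difference 0.28), and 186 genes (1.59%) were over 2-fold apart, or 284 (2.43%) after median-ratio scaling. Vehicle adrenal replicate 1 was higher than replicate 2 in 52.7% of genes (median 0.02), and 364 genes (3.11%) were over 2-fold apart, or 183 (1.56%) after median-ratio scaling. Pancreatic polypeptide (Ppy), an islet hormone, stood at 2.01 and 13.7 FPKM in the BKC100 pancreas libraries and at 45.0 and 0.397 FPKM in the vehicle pancreas libraries. Reg1a stood at 247 and 327 FPKM in the BKC100 and at 2249 and 437 FPKM in the vehicle pancreas libraries. These genes were chosen after their values were seen.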
